A study of Homo sapiens with 4 samples.

Results

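The E2F family and its DP partners comprise 10 genes here, E2F1 to E2F8 together with TFDP1 and TFDP2, which encode the DP1 and DP2 proteins. They were chosen by gene name from the 31319 genes measured in each library, and all 10 were present in every library. RNA was sequenced from T24 and UM-UC-3, which are human bladder cancer cell lines. Each line was cultured for 48 h with 140 µM OICR-9429 dissolved in DMSO, or with DMSO as the negative control. OICR-9429 keeps WDR5 from binding MLL1, an enzyme that methylates lysine 4 of histone H3, and the study asked which genes responded to it in bladder cancer cells. There were 4 libraries, 1 per line and condition, so each value below comes from a single library and the lines are the only replication. The labels give 140 µM, although a number of 125 with no stated meaning stands in both treated libraries' column headings.

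E2F proteins bind DNA as partners of DP proteins and switch the genes for DNA replication on and off as cells pass from G1 into S phase. E2F1, E2F2 and E2F3 are the activators and are held in check by the retinoblastoma protein RB1 until cyclin-dependent kinases phosphorylate it. E2F4 and E2F5 mainly repress, together with the RB1 relatives p107 and p130, E2F6 represses through Polycomb proteins without any pocket protein, and the atypical E2F7 and E2F8 bind DNA without DP and repress the same S phase genes. The RB1 pathway is often altered in bladder cancer.

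E2F genes are known to be E2F targets themselves, so the promoter sequence of the family is described first. It was read with earlier results of these libraries known. RefSeq promoters on GRCh38.p14, running from 250 bases before to 50 bases after a transcription start, were matched for 8 of the 10 genes, in 11 windows. E2F5 and E2F8 were not matched. The E2F words searched on both strands were TTTCCCGC, TTTCGCGC, TTTGCCGC, TTTGGCGC and TTTCGCG, of which TTTCGCGC contains TTTCGCG, and they were chosen after the sequences had been seen. At least 1 of them was found in 4.04% of all 35116 windows. In the family they were found in E2F1, E2F2, TFDP1 and at 1 of the starts of E2F3, and in no window of E2F4, E2F6, E2F7 or TFDP2. The last 130 bases before the start are shown for the 4 genes with a word and, for contrast, for E2F4, the most abundant E2F, and the atypical E2F7, which had none. Capitals mark the E2F words on either strand, and all sequences run 5′ to 3′ along the gene.
E2F1: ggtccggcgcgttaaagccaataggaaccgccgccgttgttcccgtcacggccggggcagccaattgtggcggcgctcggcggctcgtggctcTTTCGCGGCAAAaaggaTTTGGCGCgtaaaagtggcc
E2F2: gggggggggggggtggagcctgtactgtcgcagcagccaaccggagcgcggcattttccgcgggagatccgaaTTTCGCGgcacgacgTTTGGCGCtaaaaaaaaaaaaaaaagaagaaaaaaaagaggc
E2F3: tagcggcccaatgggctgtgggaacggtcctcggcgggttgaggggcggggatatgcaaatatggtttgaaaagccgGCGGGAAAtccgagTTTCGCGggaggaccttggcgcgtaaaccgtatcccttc
TFDP1: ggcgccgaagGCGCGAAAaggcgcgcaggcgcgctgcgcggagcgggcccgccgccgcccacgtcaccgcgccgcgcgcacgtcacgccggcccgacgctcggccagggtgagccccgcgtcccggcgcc
E2F4: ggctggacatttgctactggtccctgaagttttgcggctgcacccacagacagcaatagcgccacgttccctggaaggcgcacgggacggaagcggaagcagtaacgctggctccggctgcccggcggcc
E2F7: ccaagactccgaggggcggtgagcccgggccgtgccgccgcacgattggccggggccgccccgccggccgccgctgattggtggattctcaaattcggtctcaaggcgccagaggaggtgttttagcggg

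These stretches lie at chr20:33686386-33686515 for E2F1, chr1:23531234-23531363 for E2F2 and chr12:77065570-77065699 for E2F7, all on the minus strand. On the plus strand they lie at chr6:20401749-20401878 for E2F3, chr13:113584623-113584752 for TFDP1 and chr16:67192025-67192154 for E2F4. In E2F1 the forward TTTCGCG at -37 to -31 and the reversed TTTGCCGC at -33 to -26 overlapped, and a separate TTTGGCGC stood at -20 to -13. E2F2 had the same pair of forward words, TTTCGCG at -57 to -51 and TTTGGCGC at -42 to -35. E2F3 had a reversed TTTCCCGC at -53 to -46 beside a forward TTTCGCG at -39 to -33, and TFDP1 had a single reversed TTTCGCGC at -120 to -113. The CCAAT box, found in 34.6% of all windows, occurred 4 times each in the E2F7 window and in the window at the first start of E2F3, 3 times in that of E2F1 and 2 times in a TFDP2 window. The word TTTGAA (CHR), also searched, was found in 15.2% of all windows. It stood at -65 to -60 at the first start of E2F3. In TFDP2 it stood at -29 to -24 of 1 window and at -138 to -133 of another. These are matches of letters only, and binding at them was not measured in these libraries.

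Activator E2F1 and E2F2 transcripts and the atypical E2F8 were much lower with OICR-9429 in both lines, whereas E2F3 to E2F6 and both DP genes differed by at most 2.52-fold. E2F7 was lower too, but by a larger fold in T24 than in UM-UC-3. Levels are FPKM, fragments relative to the reads of the library and to the length of all merged exons of the gene. These lengths ran from 2503 bases for E2F1 to 11897 bases for TFDP2 and can exceed that of the expressed transcript. Ranks, ratios and shares between genes are therefore approximate. All 10 genes gave whole numbers of reads when the FPKM values were worked back, and the intervals below are exact 95% intervals for the counting error of those reads only. Within a line no test was possible. A gene was called lower or higher there by a rule of size, a fold of at least 2 in FPKM + 0.5 with at least 1 FPKM in either library, and every log2 fold change below is on that scale, OICR-9429 over DMSO. In these bulk libraries, fewer cells that express a gene and less RNA of it per cell cannot be told apart.

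By this rule 4 of the 10 genes were lower in T24 (E2F1, E2F2, E2F7 and E2F8), where 13.5% of the 12638 genes that reached 1 FPKM were lower. In UM-UC-3 4 of 10 were lower (E2F1, E2F2, E2F8 and TFDP1), against 12.1% of 13086 genes. E2F1, E2F2 and E2F8 were lower in both lines, as were 6.32% of the 11178 genes measured in both. E2F7 joined them, making 4, under TMM scaling, median-ratio scaling or a pseudocount of 0.1. None of the 10 was called higher in T24, where 6.93% of genes were, and E2F5 alone was called higher in UM-UC-3, where 14.0% were. None was higher in both lines, against 2.67% of genes. The median log2 fold change over the 10 genes stood at -0.64 for T24 and at -0.88 for UM-UC-3, beside -0.15 and 0.09 over all genes that reached the minimum in that line.

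**Figure D1:**
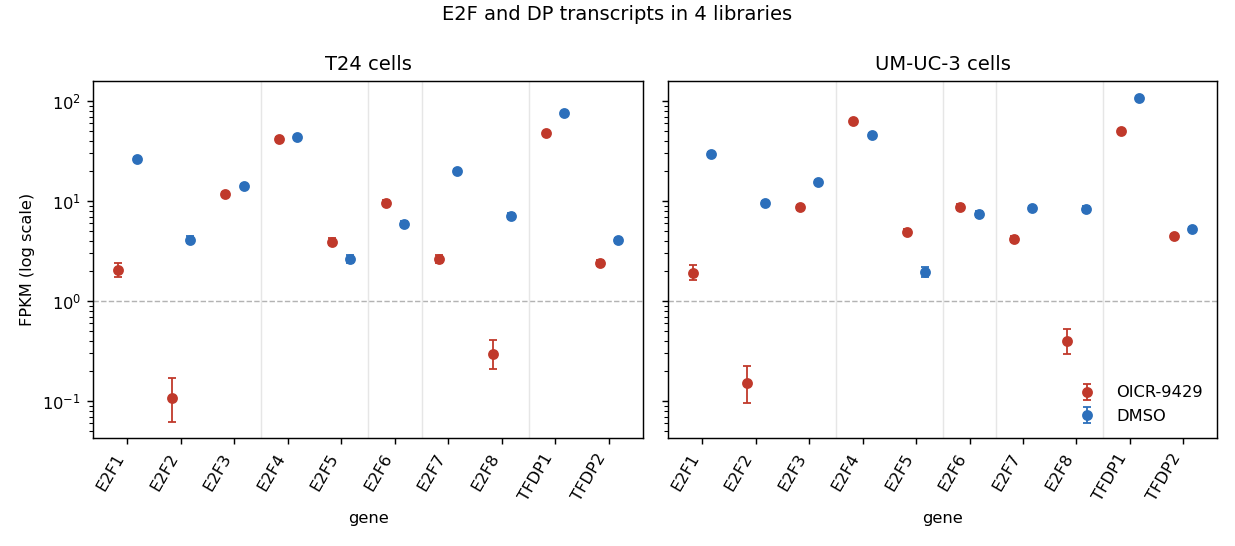
Level of each E2F and DP gene in FPKM on a log scale, in T24 (left panel) and UM-UC-3 (right panel), with OICR-9429 in red left of DMSO in blue. Each point is 1 library, bars are exact 95% intervals for counting error, and the dashed line is 1 FPKM; only E2F2 and E2F8 lay below it, in the 2 OICR-9429 libraries.

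E2F1 lies at chr20:33675683-33686404 and E2F2 at chr1:23506430-23531220, E2F7 at chr12:77021247-77065580 and E2F8 at chr11:19224063-19241620 (GENCODE 29, GRCh38, all on the minus strand), and each value sums the reads over all exons of the gene.

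E2F1, the founding activator and a direct driver of S phase entry, had 2.04 FPKM (150 reads) with OICR-9429 against 26.6 FPKM (1920 reads) with DMSO in T24. In UM-UC-3 it had 1.93 FPKM (141 reads) with OICR-9429 against 29.5 FPKM (2085 reads) with DMSO. Both treated libraries thus lay well below both DMSO libraries, and the lines resembled each other under either condition. The FPKM was 13.0-fold lower in T24 (11.0 to 15.5) and 15.3-fold lower in UM-UC-3 (12.9 to 18.3). E2F1 was the most abundant E2F after E2F4 in both DMSO libraries. Among the 10 genes it took rank 8 in both OICR-9429 libraries and rank 3 in both DMSO libraries.

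E2F2, an activator linked to proliferation of blood cells in mice, was the least abundant of the family after treatment. In T24 it had 0.106 FPKM (17 reads) with OICR-9429 against 4.10 FPKM (646 reads) with DMSO. UM-UC-3 cells had 0.151 FPKM (24 reads) with OICR-9429 against 9.58 FPKM (1474 reads) with DMSO. These were the largest folds of the 10 genes in FPKM, 38.6-fold lower in T24 (23.9 to 66.7) and 63.5-fold lower in UM-UC-3 (42.5 to 99.5). Because the treated values lie under the 0.5 added before taking logs, the log2 fold changes of -2.92 and -3.95 understate these ratios.

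E2F3, an activator whose locus is gained in a share of bladder tumours, behaved unlike the other activators. It had 11.7 FPKM with OICR-9429 against 14.0 FPKM with DMSO in T24, and 8.65 FPKM with OICR-9429 against 15.5 FPKM with DMSO in UM-UC-3. Its log2 fold changes of -0.26 and -0.81 did not meet the rule of size. E2F3 therefore exceeded E2F1 in both treated libraries, at 5.71 times its FPKM in T24 and 4.48 times in UM-UC-3, against 0.528 and 0.526 times in the DMSO libraries of the same lines. The counts join all E2F3 transcripts, so the full-length E2F3a and the shorter E2F3b could not be separated.

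E2F4, the main repressor E2F of resting cells, was the most abundant E2F in every library. T24 had 42.0 FPKM with OICR-9429 against 43.3 FPKM with DMSO, a ratio of 0.970 (0.930 to 1.01). UM-UC-3 had 63.8 FPKM with OICR-9429 against 46.2 FPKM with DMSO, a ratio of 1.38 (1.33 to 1.44). The log2 fold changes were -0.04 and 0.46. Scaling the libraries differently turned the T24 value to 0.07 (TMM) or 0.11 (median ratio), so no direction can be given for E2F4 in T24. Relative to the median of all genes its difference was 0.10 for T24 and 0.37 for UM-UC-3.

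E2F5, which pairs with p130 in repression, had 3.93 FPKM with OICR-9429 against 2.66 FPKM with DMSO in T24. In UM-UC-3 it had 4.96 FPKM with OICR-9429 against 1.97 FPKM with DMSO, 2.52 times as much (2.22 to 2.87). It was the least abundant of the 10 genes in both DMSO libraries and took rank 5 in both OICR-9429 libraries. E2F5 shares 969 exon bases with C8orf59, a gene on the opposite strand, and the counting is not stated to use strand, so reads of the pair may be mixed. C8orf59 had 5.26 FPKM with OICR-9429 against 5.68 FPKM with DMSO in T24, and 9.58 FPKM with OICR-9429 against 4.99 FPKM with DMSO in UM-UC-3, where E2F5 was also higher. What part this had in the E2F5 value was not tested.

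E2F6, the Polycomb-associated repressor, had 9.67 FPKM with OICR-9429 against 5.91 FPKM with DMSO in T24 and 8.70 FPKM with OICR-9429 against 7.43 FPKM with DMSO in UM-UC-3. Neither log2 fold change, 0.67 for T24 and 0.22 for UM-UC-3, met the rule of size. E2F6 and E2F5 were the 2 genes of the family with positive values in both lines, whereas 7 were negative in both. The pseudogene E2F6P4 was listed at 0 in both T24 libraries and had 37.6 FPKM with OICR-9429 against 11.0 FPKM with DMSO in UM-UC-3, and E2F6P1 had 2.97 FPKM with OICR-9429 against 1.95 FPKM with DMSO in T24 and 2.44 FPKM with OICR-9429 against 2.05 FPKM with DMSO in UM-UC-3. Reads can be shared between E2F6 and such copies, so the E2F6 values of both lines are uncertain.

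The atypical repressors separated from each other. E2F8 had 0.296 FPKM (36 reads) with OICR-9429 against 7.10 FPKM (848 reads) with DMSO in T24, 23.9-fold lower (17.2 to 34.4). In UM-UC-3 it had 0.397 FPKM (48 reads) with OICR-9429 against 8.33 FPKM (973 reads) with DMSO, 21.0-fold lower (15.7 to 28.6). E2F7 had 2.64 FPKM (489 reads) with OICR-9429 against 20.0 FPKM (3646 reads) with DMSO in T24, 7.58-fold lower (6.89 to 8.35). In UM-UC-3 it had 4.16 FPKM (766 reads) with OICR-9429 against 8.54 FPKM (1518 reads) with DMSO, 2.05-fold lower (1.88 to 2.24). Its log2 fold change was -2.71 for T24, past the rule of size, and -0.95 for UM-UC-3, just short of it. The UM-UC-3 value was past the rule with a pseudocount of 0.1 (-1.02), TMM scaling (-1.04) or median-ratio scaling (-1.07), and the difference between the lines was not tested. E2F7 and E2F8 were near equal in DMSO-treated UM-UC-3 cells, but E2F7 exceeded E2F8 by 10.5 times there with OICR-9429. In T24 the same ratio was 8.92 with OICR-9429 and 2.82 with DMSO.

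TFDP1, the main DNA-binding partner of E2F1 to E2F6, was the most abundant of the 10 genes in every library except UM-UC-3 with OICR-9429, where E2F4 was. It had 48.1 FPKM with OICR-9429 against 75.5 FPKM with DMSO in T24 and 49.9 FPKM with OICR-9429 against 107 FPKM with DMSO in UM-UC-3. The FPKM was 1.57-fold lower in T24 (1.51 to 1.62) and 2.15-fold lower in UM-UC-3 (2.08 to 2.22), and only the second met the rule of size, with a log2 fold change of -1.10. TFDP2, the less abundant partner, had 2.40 FPKM with OICR-9429 against 4.04 FPKM with DMSO in T24 and 4.50 FPKM with OICR-9429 against 5.27 FPKM with DMSO in UM-UC-3. Neither TFDP2 difference met the rule, with log2 fold changes of -0.65 and -0.21. TFDP1 exceeded TFDP2 by 20.1 times with OICR-9429 and 18.7 times with DMSO in T24, and in UM-UC-3 by 11.1 times with OICR-9429 and 20.3 times with DMSO.

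**Figure D2:**
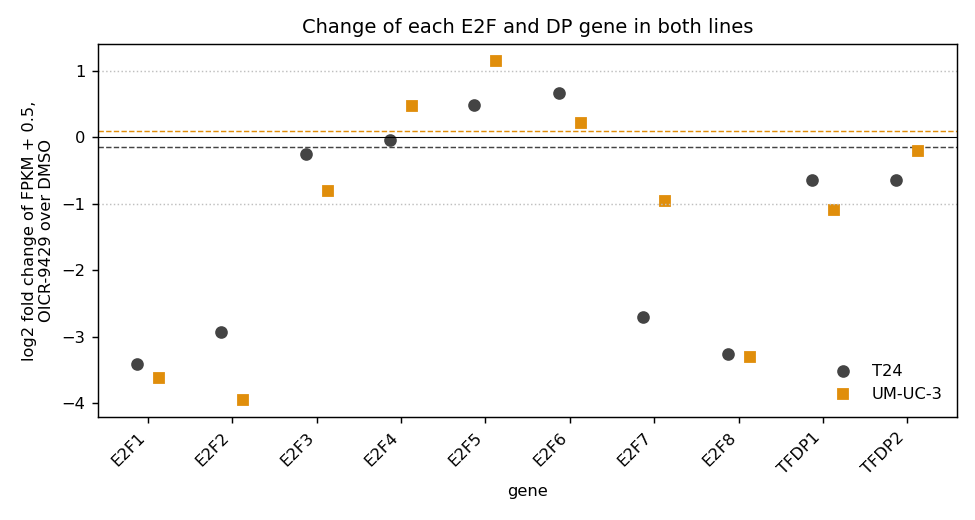
Log2 fold change of FPKM + 0.5, OICR-9429 over DMSO, for each gene in T24 (circles) and UM-UC-3 (squares). Dotted lines mark a 2-fold difference and dashed lines the median of all genes in each line, -0.15 in T24 and 0.09 in UM-UC-3; E2F1, E2F2 and E2F8 lie between -2.92 and -3.95 in both lines, and E2F7 lies at -2.71 and -0.95.

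Across both lines, limma was fitted to log2(FPKM + 0.5) of 12584 genes with cell line and treatment as terms, and p was adjusted by Benjamini-Hochberg. E2F1 (mean log2 fold change -3.52, SE 0.29, adjusted p = 0.0063), E2F2 (-3.44, SE 0.40, adjusted p = 0.012) and E2F8 (-3.28, SE 0.34, adjusted p = 0.0087) fell in limma, in 2 of 2 lines each. In all, limma called 3.11% of the genes as fallen and 0.811% as risen. Ordered from the lowest mean change, E2F1 stood at rank 77, E2F2 at rank 88 and E2F8 at rank 107 of the 12584 genes. The order of these 3 depends on the pseudocount, since the treated values of E2F2 and E2F8 lie under 0.5 FPKM. With a pseudocount of 0.1 the means were -3.75 for E2F1, -4.81 for E2F2 and -4.13 for E2F8. E2F2 and E2F8 reached 1 FPKM only in the DMSO libraries, so they entered the fit through the condition in which they were high.

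The other 7 genes did not pass at 0.05 with limma and Benjamini-Hochberg adjustment. E2F7 averaged -1.83 (SE 0.47, adjusted p = 0.10) and TFDP1 averaged -0.87 (SE 0.24, adjusted p = 0.11), both lower in 2 of 2 lines. E2F7 passed limma when the libraries were scaled by TMM (adjusted p = 0.025) or by median ratio (adjusted p = 0.034), or with voom on the worked-back reads (adjusted p = 0.037). E2F5 averaged 0.82 (limma adjusted p = 0.26), E2F3 -0.53 (0.33), E2F6 0.44 (0.43), TFDP2 -0.43 (0.50) and E2F4 0.21 (0.65). With 1 residual degree of freedom, limma's p rests on the agreement of the lines and on the spread borrowed from other genes. Calls of E2F1, E2F2 and E2F8 were lost when cell line was left out as a term (limma adjusted p = 0.094, 0.20 and 0.11) or with no FPKM minimum (0.25, 0.42 and 0.28).

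The makeup of the E2F transcripts differed between the conditions. E2F1 to E2F8 summed to 72.4 FPKM with OICR-9429 against 124 FPKM with DMSO in T24, and to 92.8 with OICR-9429 against 127 FPKM with DMSO in UM-UC-3. The activators held 19.1% of the E2F sum with OICR-9429 and 36.1% with DMSO in T24, and in UM-UC-3 11.6% with OICR-9429 and 43.0% with DMSO. Most of the activator sum in the treated libraries was E2F3. E2F4 and E2F5 together held 63.5% with OICR-9429 and 37.2% with DMSO in T24, and in UM-UC-3 74.1% with OICR-9429 and 37.9% with DMSO. Their summed level in T24 was nearly equal, 45.9 FPKM with OICR-9429 and 46.0 FPKM with DMSO, so their larger share there came with the lower sum of the others. In UM-UC-3 their level itself was higher, 68.8 with OICR-9429 against 48.1 FPKM with DMSO. E2F7 and E2F8 held 4.06% with OICR-9429 and 21.9% with DMSO in T24, and in UM-UC-3 4.92% with OICR-9429 and 13.3% with DMSO. E2F4 exceeded E2F1 by 20.6 times with OICR-9429 and 1.63 times with DMSO in T24, and in UM-UC-3 by 33.1 times with OICR-9429 and 1.56 times with DMSO. Shares of transcripts say nothing of the amounts of protein, and with 1 library per condition they carry no test. Shares and ratios between genes also rest on the merged exon lengths and are approximate.

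**Figure D3:**
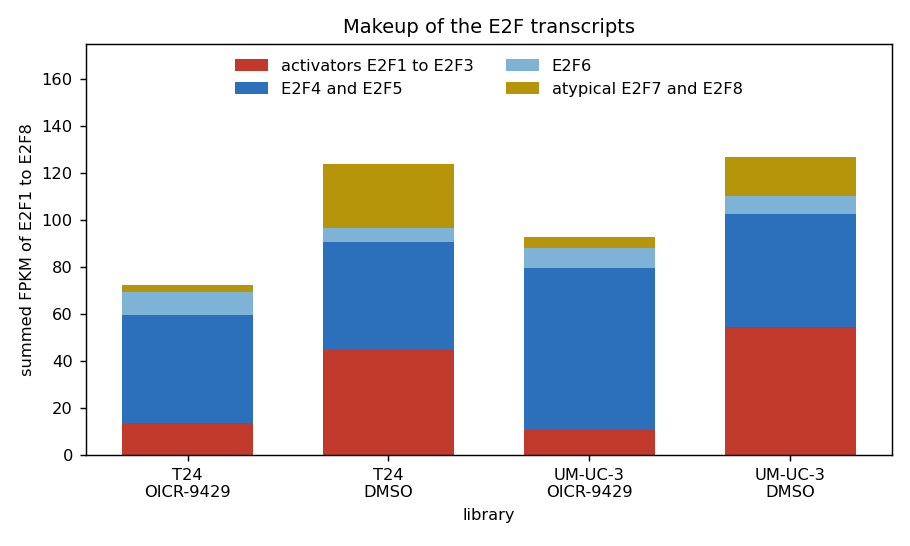
Summed FPKM of E2F1 to E2F8 in each library, divided into activators (E2F1 to E2F3), E2F4 and E2F5, E2F6, and atypical E2F7 and E2F8, with OICR-9429 left of DMSO for each line. The activator and atypical blocks are smaller with OICR-9429 in both lines, while the E2F4 and E2F5 block is 45.9 with OICR-9429 against 46.0 FPKM with DMSO in T24 and 68.8 FPKM with OICR-9429 against 48.1 FPKM with DMSO in UM-UC-3.

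Of the 3 genes for the pocket proteins that hold E2Fs in check, 1 was lower in both lines, against 6.32% of all genes. The list had medians of -0.62 (T24) and 0.48 (UM-UC-3) on the log2 scale, beside -0.15 and 0.09 for all genes. RB1, which binds the activators, had 20.4 FPKM with OICR-9429 against 23.9 FPKM with DMSO in T24 and 32.1 FPKM with OICR-9429 against 22.9 FPKM with DMSO in UM-UC-3. RBL2, which encodes p130, had 10.9 FPKM with OICR-9429 against 16.9 FPKM with DMSO in T24 and 8.84 FPKM with OICR-9429 against 5.57 FPKM with DMSO in UM-UC-3. Neither met the rule of size, and their signs differed between the lines. RBL1, which encodes p107 and is a known E2F target, had 2.94 FPKM with OICR-9429 against 11.8 FPKM with DMSO in T24 and 1.67 FPKM with OICR-9429 against 12.2 FPKM with DMSO in UM-UC-3. It was the 1 of 3 pocket protein genes that fell in limma (mean log2 fold change -2.20, adjusted p = 0.033), against 3.11% of all genes.

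Upstream of the pocket proteins, 15 genes for G1 cyclins, cyclin-dependent kinases and their inhibitors were listed. Of the 11 measured in both lines, 4 were lower in both, against 6.32% of all genes. Of the 14 that limma tested, 3 fell, against 3.11% of all genes, and none rose. The median log2 fold changes were -0.80 (T24) and -0.68 (UM-UC-3), beside -0.15 and 0.09 for all genes. CCNE2, a cyclin E that activates CDK2, had 0.558 FPKM with OICR-9429 against 4.17 FPKM with DMSO in T24 and 0.678 FPKM with OICR-9429 against 4.57 FPKM with DMSO in UM-UC-3 (limma adjusted p = 0.033). Like E2F2 and E2F8, CCNE2 entered the fit only through the DMSO libraries. CCNE1 and CCNE2 also stand on the list of G1/S target genes below, and CDK2 on the list that follows, so these counts share genes. CDK2 itself had 3.12 FPKM with OICR-9429 against 13.8 FPKM with DMSO in T24 and 3.86 FPKM with OICR-9429 against 18.0 FPKM with DMSO in UM-UC-3 (limma adjusted p = 0.024), and the third that fell was CDKN2C, an inhibitor of CDK4 and CDK6 (limma adjusted p = 0.043). CCND1, the most abundant G1 cyclin, had 178 FPKM with OICR-9429 against 128 FPKM with DMSO in T24 and 99.4 FPKM with OICR-9429 against 159 FPKM with DMSO in UM-UC-3, opposite in sign. CDKN1A, which encodes the inhibitor p21, had 70.4 FPKM with OICR-9429 against 74.3 FPKM with DMSO in T24 and 59.4 FPKM with OICR-9429 against 27.9 FPKM with DMSO in UM-UC-3. CDKN1A and CCND2 were the 2 of 13 measured genes called higher in UM-UC-3, where 14.0% of all genes were. CDKN2A, the p16 gene, was listed at 0 in both UM-UC-3 libraries and had 11.2 FPKM with OICR-9429 against 22.9 FPKM with DMSO in T24.

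Of 7 genes for proteins that act on E2F proteins or their stability, 5 were lower in both lines, against 6.32% of all genes. The same 5, CCNA2, CDK2, CCNF, SKP2 and CDC20, fell in limma, against 3.11% of all genes. The list had median log2 fold changes of -2.23 (T24) and -2.09 (UM-UC-3), beside -0.15 and 0.09 for all genes. CCNA2 encodes cyclin A, which with CDK2 ends the binding of E2F1 to DNA. It had 4.02 FPKM with OICR-9429 against 66.5 FPKM with DMSO in T24 and 2.04 FPKM with OICR-9429 against 49.9 FPKM with DMSO in UM-UC-3 (mean log2 fold change -4.10, limma adjusted p = 0.0053). CDC20, an activator of the anaphase-promoting complex, had 15.9 FPKM with OICR-9429 against 172 FPKM with DMSO in T24 and 18.2 FPKM with OICR-9429 against 238 FPKM with DMSO in UM-UC-3 (limma adjusted p = 0.0053). HCFC1, a partner of E2F1 and E2F4 on chromatin, did not meet the rule of size, at 31.4 FPKM with OICR-9429 against 25.0 FPKM with DMSO in T24 and 35.6 FPKM with OICR-9429 against 39.6 FPKM with DMSO in UM-UC-3.

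The MuvB core joins E2F4 or E2F5 with p130 in the DREAM complex, which represses cell cycle genes. Of its 5 genes 4 were measured, and LIN9, one of its subunits, was the only one called in either line. LIN9 was lower in both lines, as were 6.32% of all genes. It had 1.77 FPKM with OICR-9429 against 7.13 FPKM with DMSO in T24 and 1.48 FPKM with OICR-9429 against 4.89 FPKM with DMSO in UM-UC-3. LIN9 did not pass limma (adjusted p = 0.068), and neither did the other 3 tested genes of the core, where 3.11% of all genes fell. The 4 measured genes had median log2 fold changes of -0.26 (T24) and -0.32 (UM-UC-3), beside -0.15 and 0.09 for all genes. RBBP4, the most abundant, had 20.2 FPKM with OICR-9429 against 23.0 FPKM with DMSO in T24 and 15.3 FPKM with OICR-9429 against 28.0 FPKM with DMSO in UM-UC-3, and LIN52 had 4.25 FPKM with OICR-9429 against 5.51 FPKM with DMSO and 6.72 FPKM with OICR-9429 against 5.38 FPKM with DMSO.

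E2F6 acts within the PRC1.6 Polycomb complex, which also holds WDR5, the protein that OICR-9429 binds. None of the 12 genes of this complex passed limma, where 3.11% of all genes fell and 0.811% rose. The list median, -0.16 in each line, stood beside -0.15 and 0.09 for all genes. WDR5 had 29.7 FPKM with OICR-9429 against 33.7 FPKM with DMSO in T24 and 29.8 FPKM with OICR-9429 against 44.4 FPKM with DMSO in UM-UC-3, under the rule of size in both. MAX, the partner of MGA in this complex and of MYC elsewhere, was the 1 gene called, higher in both lines, as were 2.67% of all genes. It had 14.1 FPKM with OICR-9429 against 6.79 FPKM with DMSO in T24 and 26.2 FPKM with OICR-9429 against 11.2 FPKM with DMSO in UM-UC-3 (log2 fold changes 1.00 and 1.19, limma adjusted p = 0.085). HDAC1 had 46.2 FPKM with OICR-9429 against 64.6 FPKM with DMSO in T24 and 22.8 FPKM with OICR-9429 against 42.3 FPKM with DMSO in UM-UC-3, and PCGF6, the subunit that defines the complex, had 7.23 FPKM with OICR-9429 against 12.0 FPKM with DMSO and 10.1 FPKM with OICR-9429 against 16.9 FPKM with DMSO. Of 9 germline genes known to be repressed through E2F6 in the mouse, 7 were in the tables and only TDRKH and HORMAD1 reached 1 FPKM in any library. TDRKH had 4.78 FPKM with OICR-9429 against 8.91 FPKM with DMSO in T24 but 12.5 FPKM with OICR-9429 against 1.81 FPKM with DMSO in UM-UC-3, opposite in sign. HORMAD1 had 1.89 FPKM with OICR-9429 against 4.21 FPKM with DMSO in T24 and under 0.05 FPKM in both UM-UC-3 libraries.

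Genes that E2Fs are known to switch on for S phase were lower nearly throughout. Of 47 G1/S target genes, 43 were called lower for T24 and 41 for UM-UC-3, against 13.5% and 12.1% of all genes. The same 41 were lower in both lines, against 6.32%, and none was higher. In limma 39 of the 47 fell, against 3.11% of all genes, but 0 with no FPKM minimum (45 at an unadjusted p under 0.05) or without cell line as a term (43 at an unadjusted p under 0.05). CCNE2, MCM10, CDC45 and ASF1B were among the genes that entered the fit only through the DMSO libraries. The list was chosen with results of these libraries known, so its direction is a description. Its median log2 fold change, -2.45 for T24 and -2.79 for UM-UC-3, was smaller in size than those of E2F1 and E2F8. PCNA, the sliding clamp of DNA polymerases and the most abundant target, had 43.1 FPKM with OICR-9429 against 213 FPKM with DMSO in T24 and 80.3 FPKM with OICR-9429 against 324 FPKM with DMSO in UM-UC-3 (limma adjusted p = 0.0097). MCM7, a subunit of the replicative helicase, had 12.9 FPKM with OICR-9429 against 72.4 FPKM with DMSO in T24 and 29.8 FPKM with OICR-9429 against 162 FPKM with DMSO in UM-UC-3 (limma adjusted p = 0.0073). The largest mean log2 fold changes on the list were those of RRM2, a ribonucleotide reductase subunit (-5.01, limma adjusted p = 0.0053), and MYBL2, the B-MYB factor that joins MuvB (-4.95, limma adjusted p = 0.0053). SLBP, DCK, CASP8AP2 and CCNE1 were called in neither line, and RPA2 and EZH2 were called lower in T24 only. SLBP, which binds histone mRNA, had 51.4 FPKM with OICR-9429 against 57.0 FPKM with DMSO in T24 and 23.95 FPKM with OICR-9429 against 31.3 FPKM with DMSO in UM-UC-3. These 6 genes are named because they stood apart, after their values were seen.

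Of 7 apoptosis genes known to be driven by E2F1, 1 was lower in T24, where 13.5% of all genes were, and 2 were higher in UM-UC-3, where 14.0% were. None was called alike in both lines, where 6.32% of all genes were lower and 2.67% higher. None of the 7 passed limma, where 3.11% of all genes fell and 0.811% rose. The 6 or more measured in each line had a median log2 fold change of -0.24 for T24 and 0.05 for UM-UC-3, beside -0.15 and 0.09 for all genes. BBC3, which encodes the BH3-only protein PUMA, had 8.33 FPKM with OICR-9429 against 4.18 FPKM with DMSO in T24 and 7.17 FPKM with OICR-9429 against 2.40 FPKM with DMSO in UM-UC-3, called higher only there. BCL2L11, which encodes BIM, had 5.05 FPKM with OICR-9429 against 2.54 FPKM with DMSO in T24 and 6.86 FPKM with OICR-9429 against 2.47 FPKM with DMSO in UM-UC-3, and was likewise called in UM-UC-3. PMAIP1 (NOXA) had 49.2 FPKM with OICR-9429 against 54.7 FPKM with DMSO in T24 and 31.6 FPKM with OICR-9429 against 26.9 FPKM with DMSO in UM-UC-3. TP73 was called lower in T24, at 1.90 FPKM with OICR-9429 against 4.63 FPKM with DMSO, and was at or near 0 in UM-UC-3.

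**Figure D4:**
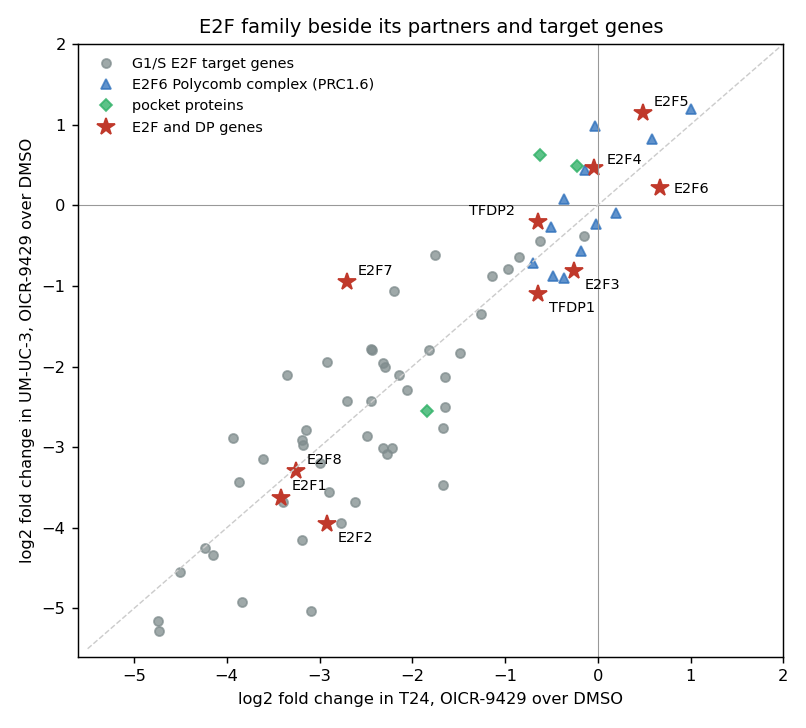
Log2 fold change in UM-UC-3 against that in T24, OICR-9429 over DMSO, for the 10 E2F and DP genes (stars), 47 G1/S target genes (circles), 12 PRC1.6 genes (triangles) and 3 pocket protein genes (diamonds). The dashed line marks equal change in both lines; E2F1, E2F2 and E2F8 lie among the target genes at the lower left, E2F3 to E2F6 and the DP genes lie between -1.10 and 1.15, as do most PRC1.6 genes, and E2F7 lies above the line.

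For the 3 genes called lower in both lines, the most similar profiles outside the family were sought by the Euclidean distance of centred log2(FPKM + 0.5) over the 4 libraries, among the genes limma tested. FANCD2, the Fanconi anaemia repair protein, was nearest to E2F1 (distance 0.153), followed by CENPU, a kinetochore protein (0.173), and PLK4, the kinase of centriole duplication (0.200). KIF20B, a mitotic kinesin, was nearest to E2F8 (0.112), again followed by FANCD2 (0.150) and CENPU (0.170). Nearest to E2F2 was a gene named Y_RNA (0.214), a small RNA with many copies that is uncertain and was listed at 0 in both treated libraries, then TROAP (0.224) and MCM10, a replication initiation factor (0.305). FANCD2 had 0.220 FPKM with OICR-9429 against 6.89 FPKM with DMSO in T24 and 0.258 FPKM with OICR-9429 against 7.75 FPKM with DMSO in UM-UC-3. With 4 libraries, such likeness rests on few points, and all of these genes were lower in both treated libraries. The search began from genes called lower in both lines, so neighbours that were lower in both follow from it. FANCD2, MCM10 and Y_RNA reached 1 FPKM only in the DMSO libraries. Their treated values lie under the 0.5 added before taking logs, which draws such profiles together.

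The library totals worked back from the FPKM values were 29335051 with OICR-9429 and 28863243 with DMSO in T24. In UM-UC-3 they were 29184912 with OICR-9429 and 28209432 with DMSO. Reads worked back for the genes summed to more than this total in every library, at 28925971 to 29973940. Of 11 epithelial or urothelial markers in the tables, KRT8 and KRT18 reached 1 FPKM in every library and KRT7 in 1. The others, among them the uroplakin genes, GATA3, KRT5 and CDH1, stayed under 1 FPKM in all 4, while VIM and CDH2 were above it in all 4. The summed FPKM of the 11 markers was 98.3 with OICR-9429 and 167 with DMSO in T24, and in UM-UC-3 30.8 with OICR-9429 and 107 with DMSO, and its part in the E2F values was not tested. No leukocyte, endothelial or erythroid marker exceeded 0.320 FPKM.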

How the data were processed

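Total RNA of T24 and UM-UC-3 cells was measured in 4 libraries. The authors deposited FPKM values for 31319 genes per library, and the tools listed in the submitters' notes are bcl2fastq 2.19.1, HISAT2 2.1.0 and HTSeq 0.6.1, beside the build hg19. The study's methods name DEGseq, Bowtie2 for the index and Ensembl references, and give n = 4 without saying what it counts. FPKM is relative to the reads of each library, so a change in a few abundant genes shifts all others, and whether counting used strand is not given in the sources used here. The depth behind each value was worked back. Taking 1 total for each library and the merged exons of GENCODE 29 as gene lengths, 29029 genes (92.7%) gave whole reads in all 4 libraries within 1e-06, and the totals were 28209432 to 29335051 reads. These lengths are on GRCh38, on which all coordinates are given.

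The E2F and DP genes and the lists were chosen with earlier results of these data known. A line's difference had no test, because each condition had 1 library, and the rule of size (fold of at least 2 in FPKM + 0.5, at least 1 FPKM in either library) was used. limma 3.58.1 in R 4.3.3 (lmFit, eBayes with a trend) was fitted to genes of at least 1 FPKM in at least 2 libraries. Treated and DMSO libraries were paired by the cell line in the labels. These do not say whether the lines were handled in separate experiments. The limma p-values rest only on the disagreement of these libraries and on the spread borrowed from other genes. Named genes were the 10 members, the 2 most abundant and the 2 most changed genes of each list, all genes of lists of up to 3, the 3 nearest profiles, and exceptions chosen after their values were seen. A gene that this rule names is not reported here. The lists overlap, since CDK2, CCNE1 and CCNE2 stand on more than 1. Promoters came from RefSeq on GRCh38.p14. Alternatives were TMM and median-ratio scaling, pseudocounts of 0.1 and 1, no FPKM minimum, folds of 1.5 and 4, limma without a trend or without cell line, voom on the worked-back reads, and each line left out. Python 3.11.15 with numpy 2.4.6, pandas 2.3.3, scipy 1.17.1 and matplotlib 3.10.9 was used.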

Additional observations from a re-analysis of the deposited data

Results flagged for a closer look

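E2F4 had log2 fold changes (OICR-9429 over DMSO) of opposite sign in the lines, -0.04 for T24 and 0.46 for UM-UC-3. No direction can be given for T24, where the ratio was 0.970 (0.930 to 1.01). The difference between the lines was not tested, since each condition had 1 library per line. Under TMM scaling the values were 0.07 and 0.36, and under median-ratio scaling 0.11 and 0.34, so the opposite signs were not kept.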

How the results depend on the processing

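TMM scaling moved the median log2 fold change of all genes by 0.10 for T24 and -0.09 for UM-UC-3, and median-ratio scaling by 0.14 and -0.12. E2F7 passed limma under TMM scaling (mean log2 fold change -1.83, adjusted p = 0.025), median-ratio scaling (-1.82, 0.034) and voom (-2.01, 0.037). With a fold of at least 1.5, 1 of the 10 genes was higher in T24 against 0 at a fold of 2, and 5 were lower in both lines against 3. With a fold of at least 4, 0 were higher in UM-UC-3 against 1. The shares of all genes called at folds of 1.5 and 4 were not worked out, so these counts stand without a comparison. Without an FPKM minimum limma called 0 of the 10 genes as fallen, against 3, with 5 at an unadjusted p under 0.05, and 0 of the 47 G1/S target genes, against 39, with 45 at an unadjusted p under 0.05. Without the pairing by cell line (no replicate block) limma likewise called 0 of the 10, with 5 at an unadjusted p under 0.05, and 0 of the 47, with 43. Leaving out a line left the other line's value alone, with no test. The means of E2F1, E2F2 and E2F8 then ranged from -2.92 to -3.95, and no gene that limma called changed sign. The folds of E2F2 and E2F8 rest on 17 to 48 reads in the treated libraries, which limits their precision.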
